A study of Danio rerio with 13 samples.

Results

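Levels of 9 circadian clock genes, per1b, per2, per3, nr1d1, nr1d2a, ciarta, dbpb, tefa and clocka, were followed across zebrafish acute lymphoblastic leukemias by poly(A) RNA sequencing. The genes were chosen by symbol, and every identifier of the count table that carries such a symbol in the gene name table was taken. The 9 symbols gave 11 identifiers of the 32105 in the table, because that table names 2 identifiers PER1 and 2 identifiers CLOCK without saying which is the a or the b copy. These 4 are called here by their symbol and the last 5 digits of the identifier, as PER1-12499 (ENSDARG00000012499), PER1-56885 (ENSDARG00000056885), CLOCK-03631 (ENSDARG00000003631) and CLOCK-11703 (ENSDARG00000011703). All 11 passed the filter on low counts that kept 13663 genes, with counts between 36 for CLOCK-11703 and 27022 for PER1-12499 in single libraries.

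The circadian clock is a transcriptional loop in which CLOCK and BMAL proteins activate genes that carry an E-box, among them the period genes and the REV-ERB receptor genes of the nr1d family, whose products then repress the activators or their genes. The PAR bZIP factors, to which dbpb and tefa belong, carry the rhythm to output genes. In zebrafish most cells hold a clock of their own that light can set, per2 and tefa are induced by light, and clocka messenger is known to peak in a phase opposite to that of the period and REV-ERB genes. Samples collected at different clock times would therefore show the repressor and output genes high or low together, and clocka moving the other way. The labels do not give the collection times.

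All leukemias came from fish that carry human MYC under the rag2 promoter, active in lymphoid precursors, together with eGFP under the promoter of the lymphocyte kinase lck, and the cells were sorted by their GFP from the whole body. The labels put the 13 libraries in 1 group, with no control, and nothing says whether leukemic fish shared a clutch, a tank or a collection time, so p-values measure the spread between these samples. A letter in the sample description, d for hMYC-9 to hMYC-14 and c for hMYC-1 to hMYC-8, is not explained. The letter c descriptions also carry an index sequence and the letter d ones do not. The hMYC-1 column was left out, because its counts equal or exceed the summed counts of hMYC-10 to hMYC-14 in all but 1.45% of 11072 genes with intermediate sums, which left 6 libraries of letter d and 6 of letter c with total counts between 8166453 and 12297780. Summed levels of marker lists are given as CPM (counts scaled to the library's total count), while log2 CPM is scaled to the normalised library total. Over these 12, the summed level of 10 B cell marker identifiers ranged between 15.1 CPM in hMYC-11 and 3902 CPM in hMYC-3. That of 7 T cell marker identifiers ranged between 250 CPM in hMYC-5 and 4609 CPM in hMYC-2. Erythroid markers summed to at most 182 CPM and myeloid markers to at most 48.4 CPM. In sorted bulk samples, fewer cells of a type and less RNA per cell cannot be told apart.

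Clock genes varied widely between leukemias, though not more than many other genes. The standard deviation (SD) of log2 CPM over the 12 libraries had a median of 0.79 over the 11 identifiers, against 0.55 over all genes tested. Of the 11, 8 were above that median of all genes and 0 were among the 10% of genes with the highest SD. The widest range was that of per2, the light-induced period gene, at 38.1-fold between hMYC-3 and hMYC-2. It was followed by CLOCK-11703 at 17.9-fold, nr1d2a at 14.2-fold and PER1-56885 at 10.4-fold. The narrowest was that of CLOCK-03631, at 2.003-fold. No library was the lowest or the highest in every clock gene, but hMYC-13 was below the median in all 11. It was the lowest library for 5 of the 11, namely per3, nr1d2a, ciarta, tefa and CLOCK-03631. Its median rank was 2 of 12, counted upward, and its highest rank was 5, for CLOCK-11703. The highest median rank, 11, was that of hMYC-4, which was the highest library for dbpb and tefa.

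**Figure D1:**
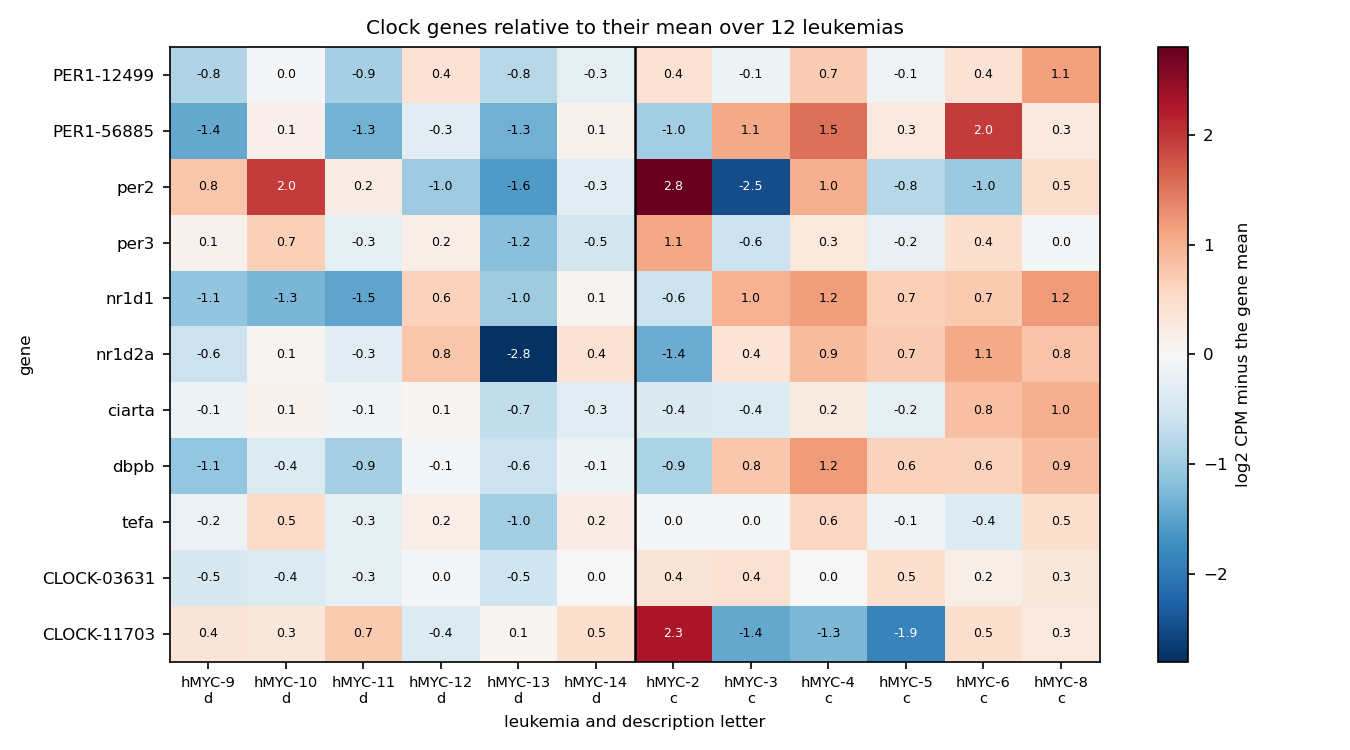
Log2 CPM of each clock gene minus its own mean over 12 leukemias, with genes in rows and leukemias in columns, letter d left of the line and letter c right of it. hMYC-13 is the lowest column for 5 genes, and per2 and CLOCK-11703 are highest in hMYC-2 while nr1d2a, ciarta and dbpb are below their means there.

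The period genes, whose proteins act with cryptochromes as the core repressors of the loop, did not share 1 pattern. PER1-12499 had a lowest, median and highest log2 CPM of 9.02 (hMYC-11), 9.44 and 10.37 (hMYC-12) in letter d, against 9.82 (hMYC-3), 10.37 and 11.11 (hMYC-8) in letter c. PER1-56885 had 2.99 (hMYC-9), 3.61 and 4.55 (hMYC-10) in letter d, against 3.44 (hMYC-2), 5.09 and 6.37 (hMYC-6) in letter c. Both PER1 identifiers overlapped between the letters, with the letter d medians below the letter c medians. per2 had 3.96 (hMYC-13), 5.51 and 7.51 (hMYC-10) in letter d, against 3.05 (hMYC-3), 5.38 and 8.30 (hMYC-2) in letter c. per3 had 6.52 (hMYC-13), 7.62 and 8.35 (hMYC-10) in letter d, against 7.09 (hMYC-3), 7.83 and 8.77 (hMYC-2) in letter c. For per2 and per3 the highest library of each letter was the same, hMYC-10 in letter d and hMYC-2 in letter c. For the PER1 identifiers this held only for hMYC-10 in PER1-56885, and hMYC-2 was the lowest letter c library there.

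Among the other repressors, nr1d1 and nr1d2a encode REV-ERB nuclear receptors, which repress the activator genes, and ciarta encodes a repressor of the CLOCK and BMAL complex. nr1d1 had 7.07 (hMYC-11), 7.49 and 9.19 (hMYC-12) in letter d, against 7.93 (hMYC-2), 9.39 and 9.73 (hMYC-8) in letter c. Of letter d, only hMYC-12 and hMYC-14 exceeded the lowest letter c library, hMYC-2. nr1d2a had 5.47 (hMYC-13), 8.13 and 9.01 (hMYC-12) in letter d, against 6.85 (hMYC-2), 8.998 and 9.30 (hMYC-6) in letter c, and ciarta had 7.42 (hMYC-13), 8.004 and 8.22 (hMYC-10) in letter d, against 7.70 (hMYC-2), 8.11 and 9.13 (hMYC-8) in letter c. In letter c, hMYC-2 was the lowest library for all 3 of these genes.

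Both output factor genes were expressed in every library. dbpb had 6.16 (hMYC-9), 6.74 and 7.18 (hMYC-12) in letter d, against 6.35 (hMYC-2), 7.94 and 8.42 (hMYC-4) in letter c. The letters overlapped for dbpb only through hMYC-2, since the other letter c libraries were all above every letter d library. tefa, the light-induced one in zebrafish, had 6.46 (hMYC-13), 7.46 and 7.98 (hMYC-10) in letter d, against 7.05 (hMYC-6), 7.40 and 8.01 (hMYC-4) in letter c, and the letters overlapped over most of that range.

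The identifiers named CLOCK, the activator of the loop, were laid out differently over the letters. CLOCK-03631 had 6.11 (hMYC-13), 6.33 and 6.64 (hMYC-14) in letter d, against 6.66 (hMYC-4), 6.99 and 7.11 (hMYC-5) in letter c. It was the single identifier of the 11 whose letters did not overlap, and 2.23% of all genes tested did not overlap. CLOCK-11703 had 3.18 (hMYC-12), 3.90 and 4.30 (hMYC-11) in letter d, against 1.69 (hMYC-5), 3.08 and 5.85 (hMYC-2) in letter c, so that both the lowest and the highest libraries belonged to letter c.

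**Figure D2:**
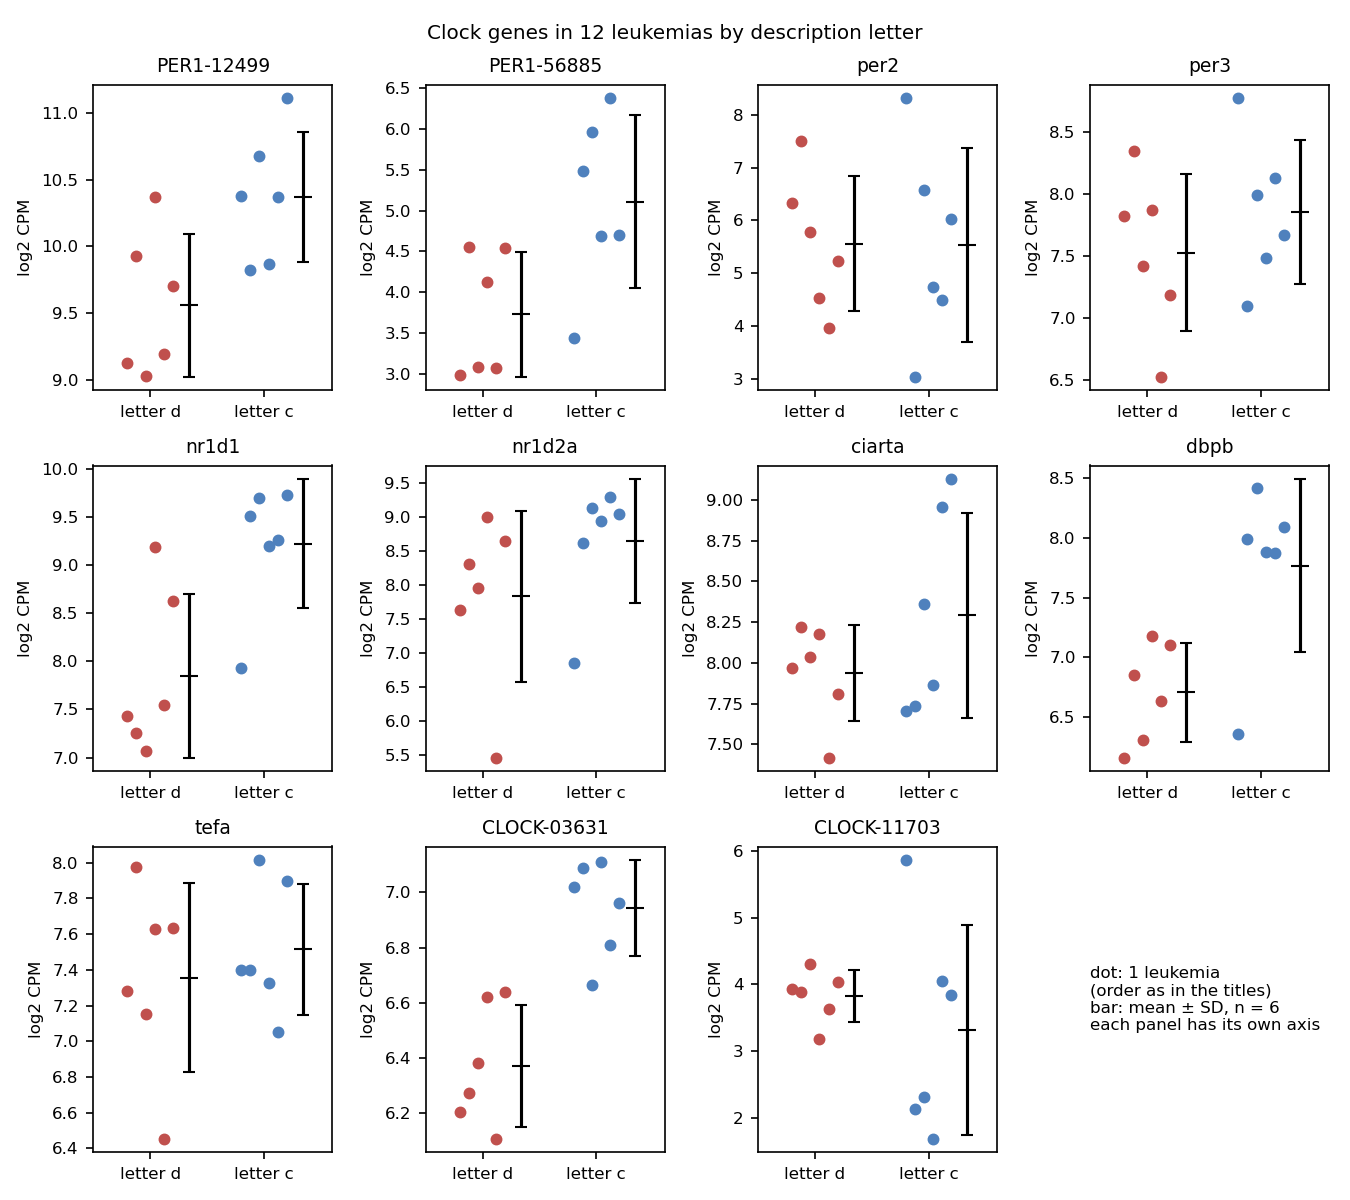
Log2 CPM of each clock gene in 12 leukemias, letter d left and letter c right, 1 dot per leukemia, with the mean and SD of 6 beside each set. CLOCK-03631 has no overlap between the letters, and dbpb overlaps only through the letter c leukemia hMYC-2.

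No clock gene passed edgeR's test between the letters. With the quasi-likelihood F test and Benjamini-Hochberg adjustment over all genes, 0 of the 11 were called at an adjusted p under 0.05, while 0.344% of genes (47 of 13663, with 15 higher and 32 lower in letter d) were. At an unadjusted p under 0.05 there were 5 of the 11, and 2794 of all genes. The fitted log2 fold change of letter d over letter c was below 0 for all 11, which held for 52.1% of all genes, and its median was -0.57 over the 11 and -0.02 over all genes. For CLOCK-11703 and per2 the fitted sign went against the mean log2 CPM, which was 3.83 ± 0.39 and 5.56 ± 1.28 in letter d, against 3.31 ± 1.57 and 5.53 ± 1.84 in letter c (SD, n = 6 each). Without hMYC-2 both fitted values were above 0, at 0.79 for CLOCK-11703 and 0.64 for per2, and that of CLOCK-11703 was also above 0, at 0.082, when counts were scaled by library totals, a scaling that moved the median of all genes to 0.10.

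CLOCK-03631 had the smallest p of the 11, with a log2 fold change of -0.57 ± 0.13 (standard error, SE) and an edgeR adjusted p of 0.0885. dbpb followed at -1.14 ± 0.30 (edgeR adjusted p = 0.102). Without hMYC-2, whose dbpb level lay among those of letter d, the log2 fold change of dbpb was -1.30 and it was called (edgeR adjusted p = 0.033). PER1-56885 was at -1.52 ± 0.48, nr1d1 at -1.25 ± 0.41 and PER1-12499 at -0.80 ± 0.29, with edgeR adjusted p-values between 0.136 and 0.165. The mean log2 CPM of 17 immediate early genes, a list taken up further below, moved with the letter, running from 6.24 (hMYC-10) to 8.23 (hMYC-12) in letter d, against 7.46 (hMYC-2) to 8.62 (hMYC-4) in letter c, with 4 of the 6 letter d libraries below every letter c library. With that mean as a covariate, an alternative chosen after the data were seen, the log2 fold change was -0.99 for PER1-56885, -0.68 for dbpb and -0.47 for nr1d1 (edgeR adjusted p between 0.638 and 0.726). In the main fit, without that covariate, the other 6 had values between -0.66 (nr1d2a) and -0.12 (tefa) and edgeR adjusted p-values between 0.374 and 0.886. DESeq2's Wald test called 4 of the 11, CLOCK-03631, dbpb, nr1d1 and PER1-56885, all lower in letter d, and it called 5.25% of all genes lower. A p that misses the threshold in edgeR does not show that levels were equal, and the calls of these 4 genes differed between the tests.

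Other genes of the clock were read by the same fits. Of 45 tested identifiers of other clock and light-response genes, edgeR called 0 between the letters, against 0.344% of all genes. At an unadjusted p under 0.05 there were 10 of the 45, against 2794 of all 13663 genes. A fitted value below 0 was found for 32, against 52.1% of all genes, and the median was -0.40. DESeq2's Wald test called 5 of the 45, with CSNK1D, CRY2, ciartb and NR1D2 lower and csnk2a1 higher in letter d. It called 5.25% of all genes lower and 3.31% higher. By group, values below 0 were found for 8 of 13 core genes, 4 of 7 nuclear receptor genes, 7 of 8 PAR bZIP and nfil3 genes, and 8 of 11 genes of bHLH repressors and clock kinases or their ligases. They were also found for 5 of 6 genes of a light-response list (cry-dash, cpdp, XPC, DDB2, lonrf1 and HMOX1), with cry5 counted among the core genes. Letter d was below letter c in the median of each of these lists, between -0.83 and -0.30, and also when counts were scaled by library totals, where the medians lay between -0.65 and -0.18 and 31 of the 45 were below 0.

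Pairs of clock genes were then compared across the 12 leukemias by Pearson's r of log2 CPM. Of the 36 pairs among the 9 identifiers other than CLOCK, for which different clock times give positive r, 30 were above 0, with a median r of 0.503. Without hMYC-13, 27 of the 36 were above 0 and the median r was 0.363. Over all pairs of genes tested, 49.8% had r above 0. Of the 18 pairs of a CLOCK identifier with these, 7 were below 0, 1 of 9 for CLOCK-03631 and 6 of 9 for CLOCK-11703. Negative r would follow only for clocka, and the names do not say which identifier that is. Pooled over the letters, the repressor and output genes thus largely moved the same way, and the pairs with CLOCK differed between its identifiers. In all, 55 pairs were tested by permutation (two-sided, 100000 resamples) with adjustment over the 55, and 5 were called, each with r above 0; 1.89% of all gene pairs had an r as high as the lowest of the 5. Pairs of different genes share libraries and depth, so these counts are descriptions.

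**Figure D3:**
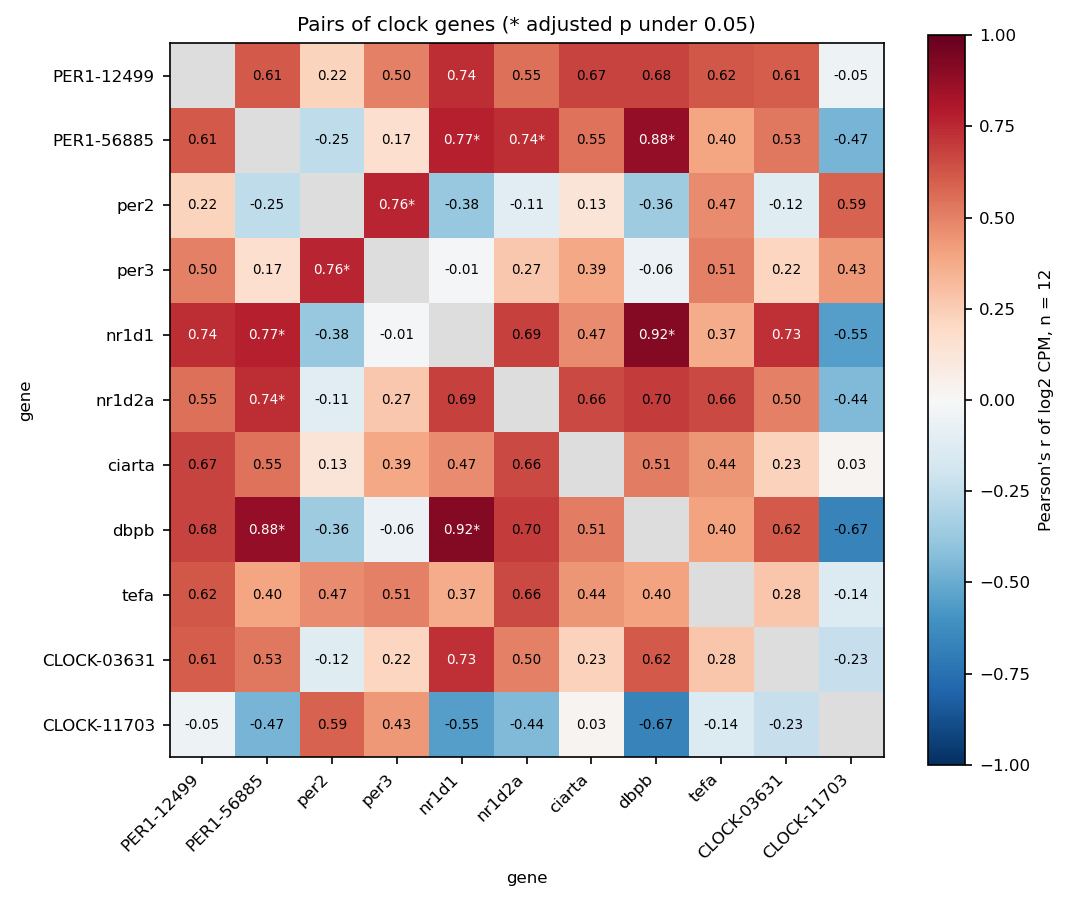
Pearson's r of log2 CPM over 12 leukemias for each pair of clock identifiers, with an asterisk where the permutation p adjusted over 55 pairs was under 0.05. A block of PER1-56885, nr1d1, nr1d2a and dbpb has r between 0.69 and 0.92, per2 and per3 pair with each other at 0.76, and the CLOCK-11703 row is negative against nr1d1 and dbpb.

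The closest pair joined a repressor and an output gene, nr1d1 and dbpb, with r = 0.918 and rho = 0.923 (permutation adjusted p = 0.0055 and 0.00275). It held as r = 0.797 in letter d (exact permutation p = 0.0806) and 0.981 in letter c (exact permutation p = 0.00556). Of the other genes tested, 3 were closer to nr1d1 than dbpb was. Without hMYC-10 and hMYC-11, the libraries farthest from the nr1d1 median, r was 0.946. In the ordering of libraries, hMYC-9, hMYC-10, hMYC-11, hMYC-13 and hMYC-2 were low in both genes and the letter c libraries other than hMYC-2 were high in both.

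PER1-56885 was tied to the same genes. With dbpb its r was 0.882 and rho 0.874 (permutation adjusted p = 0.0055 and 0.0126), with r = 0.849 in letter d and 0.776 in letter c (exact permutation p = 0.0639 and 0.0764), and r = 0.898 without hMYC-9 and hMYC-6. With nr1d1 r was 0.774 and rho 0.790 (permutation adjusted p = 0.0461 and 0.0359), with r = 0.520 in letter d and 0.713 in letter c (exact permutation p = 0.361 and 0.111). With nr1d2a r was 0.739 and rho 0.832 (permutation adjusted p = 0.0461 and 0.0249), with r = 0.658 in letter d and 0.819 in letter c (exact permutation p = 0.0972 and 0.0403). Without hMYC-9 and hMYC-6 the r with nr1d1 was 0.768 and that with nr1d2a 0.733. In letter c, hMYC-2 was the lowest library for PER1-56885 and for dbpb, nr1d1 and nr1d2a, and r within letter c without it was not computed. Of the other letter c libraries, the lowest and highest in PER1-56885 were hMYC-5 (4.69) and hMYC-6 (6.37). Their dbpb was 7.88 in each, and their nr1d1 was 9.20 and 9.26. Leaving out each library in turn, the pairs of dbpb with nr1d1 and with PER1-56885 were called in all 12 repeats, while PER1-56885 with nr1d1 was called in 2 (r between 0.732 and 0.859), and PER1-56885 with nr1d2a was called in 2 (r between 0.715 and 0.777). The other PER1 identifier, PER1-12499, had r of 0.741 with nr1d1, 0.677 with dbpb and 0.548 with nr1d2a, none called (permutation adjusted p = 0.0517, 0.0795 and 0.163).

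A different pairing held for the light-induced per2. It went with per3 (r = 0.760, permutation adjusted p = 0.0461), with r = 0.782 in letter d and 0.841 in letter c (exact permutation p = 0.0667 and 0.0389), but rho was 0.671 (permutation adjusted p = 0.107) and r fell to 0.597 without hMYC-3 and hMYC-2, the lowest and highest libraries for per2. Without hMYC-2 alone r was 0.645 (permutation adjusted p = 0.0959), and over the 12 repeats that each left out 1 library the pair was called in 2. With nr1d1, nr1d2a and dbpb, per2 had r of -0.382, -0.111 and -0.355, none called (permutation adjusted p = 0.326, 0.792 and 0.361). per3 had r of -0.014 with nr1d1. The r of per2 with the other repressor and output genes ran between -0.250 (PER1-56885) and 0.473 (tefa).

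**Figure D4:**
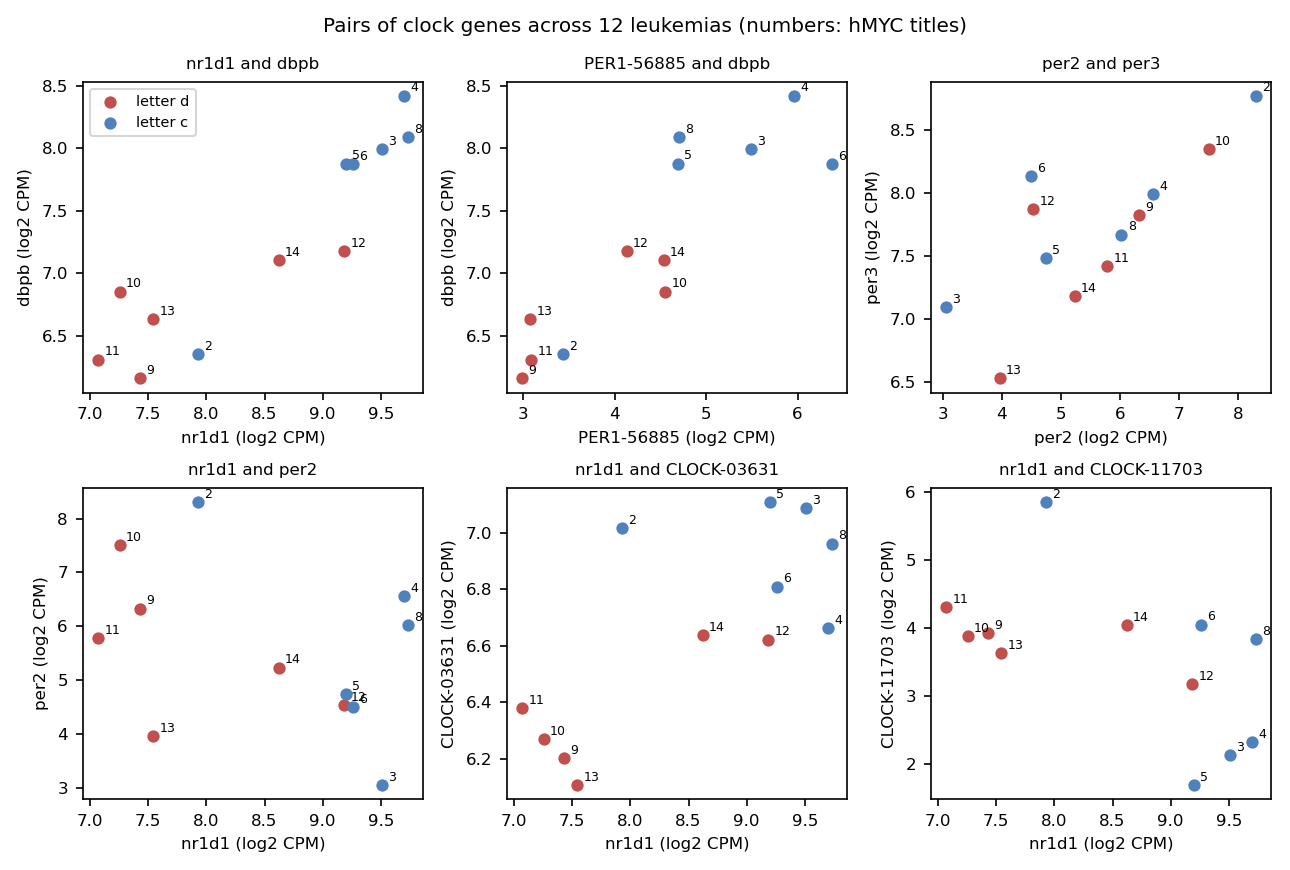
Log2 CPM of pairs of clock genes in 12 leukemias, numbered by title, letter d in red and letter c in blue. dbpb rises with nr1d1 and with PER1-56885 over the 12, and per3 rises with per2. In letter c, hMYC-2 is the lowest leukemia for dbpb, nr1d1 and PER1-56885. Pooled r with nr1d1 is 0.732 for CLOCK-03631 and -0.552 for CLOCK-11703, neither called.

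The identifiers named CLOCK had median r of opposite sign, a difference that was not tested. CLOCK-03631 had r below 0 with 1 of the 9 repressor and output identifiers, and its median r was 0.503. Its highest r, 0.732 with nr1d1 (permutation adjusted p = 0.0622), was 0.796 in letter d and -0.322 in letter c (exact permutation p = 0.0792 and 0.540). Within letter c, CLOCK-03631 had r below 0 with each of the 9, from -0.604 (PER1-56885) to -0.267 (per2), with exact permutation p between 0.207 and 0.590. Within letter d its r ran from -0.173 (per2) to 0.812 (nr1d2a), and only that with per2 was below 0. CLOCK-11703 had r below 0 with 6 of the 9, and its median r was -0.136. Its lowest values were -0.669 with dbpb (permutation adjusted p = 0.0769) and -0.552 with nr1d1 (permutation adjusted p = 0.163), with r of -0.551 and -0.660 in letter d and -0.784 and -0.718 in letter c (exact permutation p between 0.0833 and 0.260). With the B cell list mean minus the T cell list mean partialled out, these were -0.194 and 0.059 (permutation adjusted p = 0.672 and 0.907). Neither identifier gave a called pair among the 55. Of the CLOCK pairs, only nr1d1 with each CLOCK identifier and dbpb with CLOCK-11703 were followed through the alternatives. nr1d1 and CLOCK-11703 were called in 0 of 20 alternatives. dbpb and CLOCK-11703 were called with library totals (r = -0.749, permutation adjusted p = 0.0301) and with all 13 columns (r = -0.700, permutation adjusted p = 0.0417), and nr1d1 and CLOCK-03631 with library totals (r = 0.803, permutation adjusted p = 0.0301) and without hMYC-2 (r = 0.852, permutation adjusted p = 0.0243). The 13 columns include hMYC-1, which was left out above and may not be independent of hMYC-10 to hMYC-14.

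The pair results depended on the letter and on other measures. With each letter centred on its own mean, 0 of the 55 pairs were called (nr1d1 and dbpb at r = 0.838, permutation adjusted p = 0.0659), though 29 of the 36 were above 0. Of the 18 pairs with a CLOCK identifier, 9 were below 0 in that setting, with a median r of 0.021. With the B cell list mean minus the T cell list mean partialled out, 10 pairs were called, 34 of the 36 were above 0, among them nr1d1 and dbpb at r = 0.846, PER1-56885 and dbpb at r = 0.854 and per2 and per3 at r = 0.759.

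A second reading asked which genes of the whole table followed nr1d1, the first gene of a fixed order with enough counts and no wide gap. A slope of log2 expression on the log2 CPM of nr1d1 was tested with edgeR's quasi-likelihood F test over 13662 genes. It was called for 87 genes, 0.637%, of which 76 (0.556%) rose with nr1d1 and 11 fell. Of the 10 other clock identifiers, 1 was called, dbpb, with a slope of 0.70 ± 0.10 (SE; edgeR adjusted p = 0.0305). PER1-56885 (0.87, edgeR adjusted p = 0.0699) and PER1-12499 (0.46, edgeR adjusted p = 0.0887) were not called, nor were nr1d2a at 0.62, ciarta at 0.26, CLOCK-03631 at 0.25, tefa at 0.14, per3 at -0.07, CLOCK-11703 at -0.61 and per2 at -0.62, whose edgeR adjusted p-values lay between 0.128 and 0.866. The slope was above 0 for 7 of the 10 and for 49.2% of all genes. DESeq2's Wald test called 4 of the 10 above 0, dbpb, PER1-12499, PER1-56885 and nr1d2a, and 8.65% of all genes above 0.

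Among the 45 other clock identifiers, 27 had a slope above 0, 12 had an unadjusted p under 0.05, and edgeR called 2. Of all 13662 genes, 2689 had an unadjusted p under 0.05 in that test. DESeq2's Wald test called 9 of the 45, with 7 slopes above 0 and 2 below, and it called 3.13% of all genes below 0. Both genes called by edgeR encode bHLH repressors of E-box transcription, BHLHE41 (slope 1.44 ± 0.22, edgeR adjusted p = 0.0385) and BHLHE40 (slope 1.76 ± 0.31, edgeR adjusted p = 0.0438). Their r with nr1d1 was 0.911 and 0.878, with 0.898 and 0.945 in letter d (exact permutation p = 0.0194 and 0.00278) and 0.728 and 0.694 in letter c (exact permutation p = 0.126 and 0.133). The calls varied with the libraries used. The count of genes called was between 0 and 808 over the 12 repeats that left out 1 library, and was 0 with the letter or the B minus T level as a covariate, where the dbpb slope was 0.62 and 0.63. dbpb was called in 5 of the 12 repeats, with slopes between 0.66 and 0.78. With CLOCK-11703 in the place of nr1d1, 1432 genes were called, with nr1d2a 7, with CLOCK-03631 1, and with each of the other 7 clock identifiers 0.

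**Figure D5:**
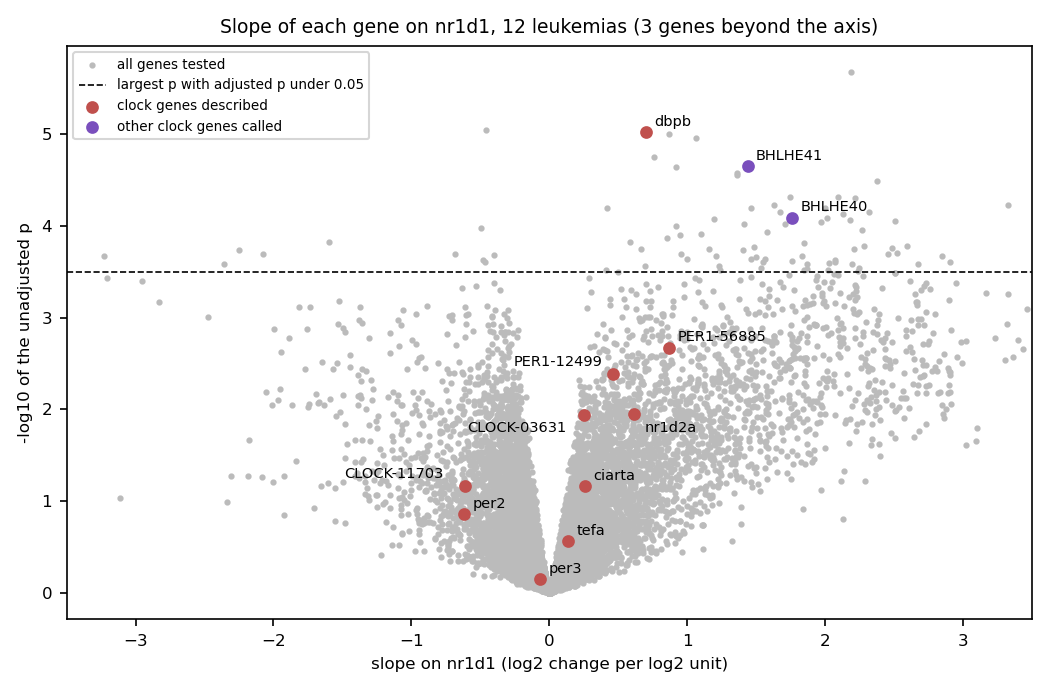
Slope of each gene on nr1d1 (log2 change per log2 unit of nr1d1) against the -log10 of its unadjusted p in edgeR's test, with clock identifiers in red and the other clock genes called in purple. dbpb, BHLHE41 and BHLHE40 lie above the dashed line of the largest called p, and 3 genes lie beyond the axis.

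Genes closest to each clock gene, the 11 identifiers themselves left aside, were listed over the 12 libraries as a description, since genes in such a list share libraries and depth. For nr1d1 the 5 highest r were with cccdc110 (0.950), si:ch73-14h10.4 (0.941), FZD9 (0.922), ARHGAP45 (0.918) and SLC25A25 (0.916), and the 5 lowest with PGK2 (-0.949), SNW1 (-0.913), DDX46 (-0.901), TMEM222 (-0.894) and ARL1 (-0.890). The gene closest to dbpb was RASA1 (0.930), to PER1-12499 MEPCE (0.915), to PER1-56885 SH3GLB2 (0.903), to per2 ENSDARG00000099890 (0.895), to per3 RYBP (0.914) and to nr1d2a MARK2 (0.921). For ciarta it was alms1 (0.886), for tefa ENSDARG00000068453 (0.925), for CLOCK-03631 CLINT1 (0.929) and for CLOCK-11703 TLK1 (0.965). Among the clock genes themselves dbpb was the 2nd closest gene to PER1-56885 and the 4th closest to nr1d1, and nr1d1 was the 3rd closest to dbpb.

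Clock genes were also related to depth and to lists of marker genes, 55 relations in all, each tested by permutation with adjustment over the 55. Of these, 3 were called, and the share of all genes related as strongly to each list was not computed. nr1d1 rose with the mean of 17 immediate early genes, such as fosab, jun and egr1, which respond within minutes to stimuli (r = 0.899, permutation adjusted p = 0.00275; rho = 0.755, permutation adjusted p = 0.085). Its r was 0.911 in letter d and 0.650 in letter c (exact permutation p = 0.0208 and 0.174), and 0.890 without the pair of libraries farthest from the median of the list. The summed level of that list ranged between 3662 CPM in hMYC-13 and 17823 CPM in hMYC-5. The same list had r of 0.754 with dbpb, 0.738 with CLOCK-03631, 0.720 with nr1d2a (permutation adjusted p = 0.0657 each) and 0.675 with PER1-56885 (permutation adjusted p = 0.108). With the immediate early mean partialled out, a choice made after the data were seen, nr1d1 and dbpb had r = 0.835 and per2 and per3 had r = 0.827 (permutation adjusted p = 0.0355 each), PER1-56885 and dbpb had r = 0.770 (permutation adjusted p = 0.0807), and 31 of the 36 pairs were above 0. The median r of the 36 was then 0.360, against 0.503 in the main setting. Of the 55 pairs, 7 had an unadjusted permutation p under 0.05, against 19. With the immediate early mean as a covariate in the fit on nr1d1, 0 genes were called, and the dbpb slope was 0.96.

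CLOCK-11703 followed the lineage markers of the leukemias. Its r was 0.845 with the T cell list mean (permutation adjusted p = 0.0011; rho = 0.881, permutation adjusted p = 0.0154) and -0.772 with the B cell list mean (permutation adjusted p = 0.0451; rho = -0.755, permutation adjusted p = 0.085). Within the letters the r with the T list was 0.162 in letter d and 0.880 in letter c (exact permutation p = 0.753 and 0.0181), and that with the B list was -0.927 and -0.886 (exact permutation p = 0.00972 and 0.0472). It was lowest in hMYC-3, hMYC-4 and hMYC-5, whose T list means were the 3 lowest of the 12 and whose B list means were the 3 highest. Without the pair of libraries farthest from the median of each list the r values were 0.823 and -0.648. The relation with the B list lost its call in 8 of the 12 repeats that left out 1 library, with r between -0.905 without hMYC-2 and -0.722 without hMYC-3. nr1d1 and dbpb had r of 0.723 and 0.703 with the B list (permutation adjusted p = 0.0899 and 0.0978). In the slope fit with CLOCK-11703 in the place of nr1d1, edgeR called 1432 of 13662 genes, 10.5%. Whether the relation of CLOCK-11703 with the lineage lists was stronger than that of other genes was not tested. None of the 11 relations with total counts was called. The part of the immediate early and lineage lists in the relations among clock genes was not tested beyond these values.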

How the data were processed

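The authors deposited whole-number read counts per Ensembl zebrafish gene for 13 libraries. Per the submitters' processing notes, bcl2fastq, STAR, Picard and featureCounts were used with the build GRCz10. Their versions, the annotation and whether counting used the strand of the stranded library kit are not given in the sources used here, so counts of overlapping or near-identical genes are uncertain. Gene symbols came from a name table that named 81.8% of identifiers, partly in human form. Genes were filtered with filterByExpr on the letter and normalised by TMM. Differences and slopes were fitted with edgeR 4.0.16 (R 4.3.3, limma 3.58.1) and adjusted over all genes by Benjamini-Hochberg at 0.05, with DESeq2 1.42.0 as an alternative. Log2 CPM used a prior count of 2. Relations used two-sided permutation tests with 100000 resamples, whose smallest p is 1e-05, and exact tests within a letter, in Python 3.11.15 with scipy 1.17.1. Other clock genes and marker lists with a gap of 0.4 of their range between neighbouring values gave no pooled r, which left out 3 of 45 other clock genes. None of the 11 clock identifiers had such a gap. The lists and ranks of closest genes and the shares over all gene pairs were not screened for gaps. The gene followed in the slope fit was the first of nr1d1, per3 and per1b with at least 10 counts in each library and no such gap. Named genes were all clock genes listed, other clock genes that were called, the 5 highest and 5 lowest by r with nr1d1 and the closest gene of each other member; others named were chosen after their values were seen. The fits were tested on simulated data. Members and lists were chosen with earlier results of these data known.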

Additional observations from a re-analysis of the deposited data

Results flagged for a closer look

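The letter c leukemia hMYC-2 stood apart from the other 5 leukemias of its letter in 3 clock genes. Its log2 CPM of nr1d1 was 7.93, with the next lowest letter c leukemia at 9.20. Its nr1d2a was at 6.85, with the next at 8.62, and its dbpb was at 6.35, with the next at 7.88. The gaps were 0.706, 0.723 and 0.736 of the range of the 6, which is above Dixon's critical share for 6 values. Of 22 sets of 6 values looked at, these 3 stood out, all through hMYC-2. The 3 genes had r between 0.909 and 0.981 with each other in letter c, hMYC-2 included, so the 3 sets are not independent. The rate of about 1 in 20 that chance gives for 1 set can therefore not be set against their count. hMYC-2 also had the highest summed T cell markers of the 12 and the highest per2, per3 and CLOCK-11703. The part of these in its low values was not tested. Its TMM factor of 0.740 was the lowest, and a lower factor gives higher log2 CPM values. Without hMYC-2, r of nr1d1 and dbpb was 0.927, and r of PER1-56885 and dbpb was 0.873, both called, and the count of clock gene pairs called was 12.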

How the results depend on the processing

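The genes called between letters, 47, were 1159 with DESeq2's Wald test, 7 with no filter, 20 with a mean count of at least 10, 0 with all 13 columns, 10 with the B minus T level as a covariate, 1 with the immediate early level as a covariate (chosen after seeing the data), and between 8 (without hMYC-14) and 59 (without hMYC-12) with each library left out. Slopes on nr1d1, called for 87 genes, were called for 1609 with DESeq2's Wald test, 4 with library totals, 1 with no filter, 35 with a mean count of at least 10, 461 with all 13 columns, 0 with the letter, the B minus T level or the immediate early level as a covariate, and between 0 (without hMYC-4, hMYC-9, hMYC-10 or hMYC-11) and 808 (without hMYC-8, and 505 without hMYC-2) with each library left out. In its place PER1-12499, PER1-56885, per2, per3, ciarta, dbpb and tefa each gave 0, CLOCK-03631 gave 1, nr1d2a 7 and CLOCK-11703 1432. The 5 pairs called became 12 with library totals, 9 with all 13 columns, 10 with B minus T partialled out, 0 centred within each letter, 2 with the immediate early level partialled out, and between 2 and 12 (without hMYC-2) with each library left out; pairs above 0 of the 36 were between 27 (without hMYC-13) and 33 (without hMYC-2). The 3 relations with depth and lists became 6 with all 13 columns, of 44 computed, and between 1 (without hMYC-3) and 6 (without hMYC-10) with each library left out. Signs that turned were those of uncalled values. With the immediate early level as a covariate, letter d over letter c was 0.16 for nr1d2a and 0.034 for tefa; with library totals it was 0.082 for CLOCK-11703; with B minus T as a covariate the per3 slope on nr1d1 was 0.11, and partialled out it left r of nr1d1 and CLOCK-11703 at 0.059. With each library left out, letter d over letter c ran from -1.07 to 0.64 for per2, -0.26 to 0.014 for tefa and -0.42 to 0.79 for CLOCK-11703, and the per3 slope from -0.16 to 0.015. No cause of these changes was tested. Some settings also had fewer libraries or other genes tested. Those with all 13 columns count hMYC-1 as a separate leukemia, though it may not be independent of hMYC-10 to hMYC-14, so their p-values and counts are descriptions. For CLOCK-11703 and the T list no r is given without hMYC-3 or hMYC-4, since the list then had a wide gap. Depth limits CLOCK-11703 and PER1-56885 most, whose lowest counts were 36 and 64.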

Other observations

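The 11 clock identifiers were also related to 42 other clock and light-response genes, 462 relations in all, adjusted together. Of these 6 were called by r and 0 by rho, and the share called for relations with other genes was not computed. PER1-12499 went with NR1D2, a REV-ERB receptor gene, at r = 0.887, and with CRY2, a cryptochrome gene, at r = 0.851, and the relations of nr1d1 with BHLHE41 and BHLHE40 given above were called too. CLOCK-11703 went with cry3a, another cryptochrome gene, at r = 0.840, and CLOCK-03631 went against csnk2a1, a casein kinase gene, at r = -0.885 (permutation adjusted p = 0.0216 for each of the 6). In the order letter d, letter c, the r was 0.689 and 0.915 for NR1D2, 0.737 and 0.866 for CRY2, 0.755 and 0.906 for cry3a, and -0.720 and -0.649 for csnk2a1 (exact permutation p between 0.0139 and 0.144). With the 2 libraries of most extreme member level removed, these r were 0.817, 0.785, 0.863 and -0.824. By r among all genes tested, counted downward, NR1D2 was 7th and CRY2 21st for PER1-12499. BHLHE41 was 9th and BHLHE40 32nd for nr1d1, cry3a was 242nd for CLOCK-11703 and csnk2a1 was 13658th for CLOCK-03631.

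Of these 42, the highest r with tefa were 0.843 for cry5, which encodes a photolyase, and 0.818 for lonrf1 (permutation adjusted p = 0.0746 and 0.0874, not called); both were picked after their values were seen. The other genes of the light-response list had r with tefa of 0.707 for cry-dash, 0.601 for DDB2, 0.314 for XPC and 0.054 for HMOX1, none called, and cpdp had no pooled r.

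In the hMYC-1 column, left out above, counts of the 11 identifiers were between 1.03 times (per2) and 2.04 times (PER1-56885) the summed counts of hMYC-10 to hMYC-14, with 1.68 times for dbpb and 1.63 times for nr1d1. Over all genes the total count was 51808498 in hMYC-1, against 51478946 summed over hMYC-10 to hMYC-14.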
